A study of Mus musculus with 6 samples.

Results

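Transcripts of the receptors for CSF-2 (GM-CSF) and CSF-1 (M-CSF), and of the kinase and STAT5 factors behind the CSF-2 receptor, were compared in AMs with and without CD44. The members were 10 genes chosen by name: Csf2ra, Csf2rb, Csf2rb2, Il3ra, Csf3r, Csf1r, Csf1, Jak2, Stat5a and Stat5b, of 24340 genes with a value in every sample. All 10 passed the filter on low values, 0.5 FPKM as the mean of all 6 samples, Csf1 only through its CD44+/+ samples. No member differed between the genotypes at an adjusted p under 0.05 (limma), whereas 0.111% of all 10800 genes tested did. Among the members 1 had an unadjusted p under 0.05 (7.69% of all genes did), and 9 of 10 had overlapping values in CD44+/+ and CD44-/- AMs (11.6% of all genes did not overlap). Csf3r was the exception, with values 1.25 times as high on average in CD44-/- AMs and no overlap, but an adjusted p of 0.499.

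RNA came from bronchoalveolar lavage (BAL) cells of naive female C57BL/6 mice aged 6 to 10 weeks, in 3 CD44+/+ and 3 CD44-/- samples. The CD44-/- mice carry the knockout in every cell, in the AMs and in the lung around them. The pools of lavage cells are given in the order 4, 2 and 2 mice, with no statement that this order follows the replicate numbers, and the cells were not sorted before RNA extraction. No mouse in either group was given a cytokine or an infection.

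AMs depend on CSF-2 that the lung epithelium makes. CSF-2 binds an alpha chain, encoded by Csf2ra, which pairs with the common beta chain encoded by Csf2rb; JAK2 bound to the beta chain then phosphorylates STAT5, and PPARg is induced downstream. The loss of this signal leaves surfactant uncleared and gives alveolar proteinosis. CSF-1 acts through a receptor of another kind, the tyrosine kinase CSF1R, which supports most other tissue macrophages.

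Some members have near-identical coding sequences, which bears on how their values can be read. Mice carry Csf2rb2 beside Csf2rb, and its product serves the IL-3 receptor only. Csf2rb lies at chr15:78325752-78353847 on the plus strand and Csf2rb2 at chr15:78282507-78305721 on the minus strand (GENCODE vM21, GRCm38), 20030 bp apart. Their coding sequences, of 2688 and 2634 bases, were identical at 95.2% of 2628 aligned bases, and 30.9% of the 42-base stretches of Csf2rb, the read length used, occurred unchanged in Csf2rb2. The window below, printed to show how little separates the pair, runs from coding base 2063 to 2344 in the last coding exon of each gene, at chr15:78348557-78348838 (plus strand) and chr15:78284610-78284891 (minus strand). Capitals mark the 4 bases at which the 2 genes differ.

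Csf2rb: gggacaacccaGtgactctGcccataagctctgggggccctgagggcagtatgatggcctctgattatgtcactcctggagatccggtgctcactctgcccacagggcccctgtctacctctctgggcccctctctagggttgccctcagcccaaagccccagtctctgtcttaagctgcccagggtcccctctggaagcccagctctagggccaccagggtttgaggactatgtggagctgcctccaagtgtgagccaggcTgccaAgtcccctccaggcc

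Csf2rb2: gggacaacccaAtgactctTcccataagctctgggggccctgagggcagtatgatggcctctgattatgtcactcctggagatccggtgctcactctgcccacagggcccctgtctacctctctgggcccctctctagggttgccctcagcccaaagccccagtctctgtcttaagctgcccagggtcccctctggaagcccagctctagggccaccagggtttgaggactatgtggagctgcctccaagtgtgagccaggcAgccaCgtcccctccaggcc

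A read from the 242 bases between the inner capitals cannot be assigned to either gene by its own sequence. Reads were paired, however, and a mate outside this run may differ between the genes. The share of stretches treats single reads of coding sequence only. The values of Csf2rb and Csf2rb2, and the ratio and sum of them below, depend on how such reads were counted, which is not given in the sources used here. Stat5a (chr11:100859351-100885169, plus strand) and Stat5b (chr11:100780731-100850724, minus strand) form the other pair, 8626 bp apart. Their coding sequences were identical at 91.1% of 2291 aligned bases, with a shared run of 324 bases, and 29.6% of the 42-base stretches of Stat5a occurred in Stat5b, so the same limit holds for them.

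STAT5 binds a palindromic core spelled TTCNNNGAA, which reads the same on both strands. The letters were searched for in RefSeq promoter windows from 250 bases before to 50 bases after the start (GRCm38.p6). They occurred in 2726 of 32851 windows, or 8.3%. Windows were found for 8 of the 10 members, and 1 of their 10 windows held the core, that of Csf2rb2. Among the 23 windows of genes listed below as STAT5 targets or negative regulators, 4 held it, from Cish, Socs3 and Bcl6, which had 2 such windows with 1 and 3 copies. Cish, a SOCS-family inhibitor that STAT5 induces and a gene chosen after its values were seen, had 2 copies. The promoters of Csf2rb2 (chr15:78305692-78305871, minus strand) and Cish (chr9:107296509-107296688, plus strand) are printed from 150 bases before to 30 bases after the start, with the core in capitals, to show where the copies lie. A match of letters is not evidence of binding.

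Csf2rb2 promoter: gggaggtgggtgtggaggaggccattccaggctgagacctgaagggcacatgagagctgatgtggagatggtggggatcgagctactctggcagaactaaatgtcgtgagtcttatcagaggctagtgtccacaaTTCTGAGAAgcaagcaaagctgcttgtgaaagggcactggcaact

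Cish promoter: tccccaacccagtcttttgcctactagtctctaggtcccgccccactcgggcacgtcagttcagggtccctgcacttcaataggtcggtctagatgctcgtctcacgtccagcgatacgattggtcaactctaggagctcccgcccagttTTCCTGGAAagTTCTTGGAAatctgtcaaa

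The alpha chain of the CSF-2 receptor was among the more abundant transcripts of AMs. Csf2ra (chr19:61223957-61228429, minus strand) measured 211, 186 and 188 FPKM in CD44+/+ AMs and 206, 207 and 198 FPKM in CD44-/- AMs. The CD44-/- values all lay inside the CD44+/+ range. Means were 195 ± 13.9 and 203.7 ± 4.93 FPKM (SD, n = 3 each). The log2 fold change, CD44-/- over CD44+/+, was 0.065 (SE 0.059, adjusted p = 0.923). Its 95% confidence interval corresponds to a fold of 0.953 to 1.15. Without CD44+/+ replicate 1, the highest sample, the log2 fold change was 0.12 (adjusted p = 0.355), and without CD44+/+ replicate 2 or 3 it was 0.03 and 0.04. Of the 10800 genes tested, 0.111% were called at an adjusted p under 0.05, against 0 of the 10 members.

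The common beta chain was the most abundant member. Csf2rb had 222, 227 and 225 FPKM in CD44+/+ and 236, 225 and 209 FPKM in CD44-/- AMs. The CD44-/- samples reached both above and below the CD44+/+ samples. Means were 224.7 ± 2.52 and 223.3 ± 13.6 FPKM, with a log2 fold change of -0.01 (SE 0.05, adjusted p = 0.989) and an interval of 0.911 to 1.08 fold. Leaving out CD44-/- replicate 3 turned the sign, to 0.04.

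The second beta chain was present at a lower level. Csf2rb2 had 71.6, 80.7 and 79.6 FPKM in CD44+/+ and 76.0, 78.2 and 72.9 FPKM in CD44-/- AMs. All CD44-/- values fell within the CD44+/+ range. The log2 fold change was -0.03 (SE 0.06, adjusted p = 0.972, interval 0.891 to 1.08 fold). Within a sample, Csf2rb was 2.81 to 3.10 times Csf2rb2, and the ratio of Csf2ra to the sum of both beta chains ran from 0.604 to 0.719. Neither ratio separated the genotypes (exact two-sided permutation p = 0.5 and 0.4, adjusted p = 0.75 for each over the 6 ratios compared).

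Il3ra, the alpha chain that binds IL-3, was a low-level member. It lies at chr14:14346275-14356011 on the plus strand, and had 6.69, 7.84 and 10.8 FPKM in CD44+/+ and 7.42, 7.46 and 6.03 FPKM in CD44-/- AMs. The highest value, that of CD44+/+ replicate 3, set the difference between the means of 8.44 ± 2.12 and 6.97 ± 0.814 FPKM. The log2 fold change was -0.25 (SE 0.17, adjusted p = 0.847) with all samples and -0.06 (adjusted p = 0.986) without that replicate. Without CD44+/+ replicate 1, the lowest of its group, it was -0.40 (adjusted p = 0.344), and without CD44-/- replicate 3 it was -0.15 (adjusted p = 0.965).

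**Figure D1:**
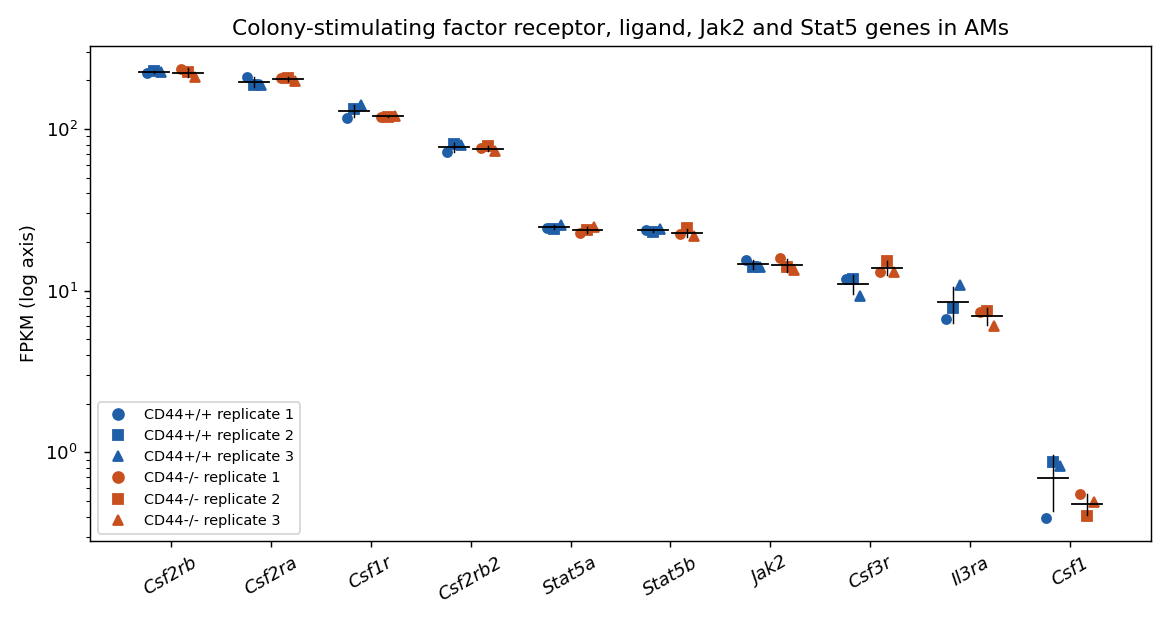
FPKM of the 10 members on a log axis, ordered by their mean over the 6 samples. Points are samples, with horizontal bars for the mean and vertical bars for the SD of each genotype (n = 3); the genotypes overlap for every member except Csf3r, and the order of the means is the same in both.

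Csf1r, the receptor for CSF-1 and IL-34, followed Csf2rb and Csf2ra in level. It lies on chromosome 18 (61100598 to 61132149, plus strand) and had 117, 132 and 140 FPKM in CD44+/+ and 119, 119 and 121 FPKM in CD44-/- AMs. CD44+/+ replicate 1 lay below all the CD44-/- samples and the other two CD44+/+ samples above them. Means were 129.7 ± 11.7 and 119.7 ± 1.16 FPKM, with a log2 fold change of -0.11 (SE 0.07, adjusted p = 0.808) and an interval of 0.833 to 1.03 fold. Without CD44+/+ replicate 1 the log2 fold change was -0.18 (adjusted p = 0.203), and without CD44+/+ replicate 3 it was -0.05 (adjusted p = 0.977). The ratio of Csf1r to Csf2ra was 0.555, 0.710 and 0.745 in CD44+/+ AMs and 0.578, 0.575 and 0.611 in CD44-/- AMs. This ratio split the CD44+/+ samples in the same way, and its difference had an exact permutation p of 0.4 (adjusted p = 0.75).

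Csf1, the gene of the CSF-1 ligand, was the least abundant member. It lies at chr3:107741048-107760469 on the minus strand, and had 0.390, 0.865 and 0.828 FPKM in CD44+/+ and 0.549, 0.404 and 0.491 FPKM in CD44-/- AMs. The CD44-/- mean, 0.481 ± 0.0727 FPKM, was under the minimum of 0.5 FPKM, so Csf1 entered the test through its CD44+/+ mean of 0.694 ± 0.264 FPKM. CD44+/+ replicate 1 was again apart from its group, at the lowest value of all. The log2 fold change was -0.39 (SE 0.32, adjusted p = 0.893), with an interval from 0.462 to 1.25 fold, the widest of the members. Without CD44+/+ replicate 1 it was -0.71 (adjusted p = 0.329), and without CD44+/+ replicate 2 it was -0.22 (adjusted p = 1) and without CD44+/+ replicate 3 -0.25 (adjusted p = 0.978). With a pseudocount of 1 in place of 0.1 it was -0.18 (adjusted p = 0.867). Csf1r exceeded Csf1 by 153 to 300 times within a sample.

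The ligands of these receptors were close to undetected. Csf2, the gene of CSF-2 itself, was listed at 0 in 5 samples and at 0.0618 FPKM in CD44-/- replicate 1. Il34, the other ligand of CSF1R, did not exceed 0.0396 FPKM. Csf3, Il3 and Il5 were listed at 0 in all 6 samples. None of these 5 genes reached the minimum for testing.

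Csf3r, the receptor for G-CSF and a gene that neutrophils also express, had the smallest unadjusted p of the members. It lies at chr4:126024550-126044440 on the plus strand, and had 11.8, 11.9 and 9.32 FPKM in CD44+/+ and 13.0, 15.4 and 13.0 FPKM in CD44-/- AMs. All CD44-/- samples were above all CD44+/+ samples. Means were 11.0 ± 1.46 and 13.8 ± 1.36 FPKM, and the log2 fold change was 0.33 (SE 0.11, interval 1.05 to 1.5 fold). The unadjusted p was 0.0176 and the adjusted p 0.499, and an exact permutation test gave p = 0.1, the smallest that 3 against 3 samples allow. Of all genes tested, 11.6% had no overlap between genotypes in either direction, against 1 of 10 members. Without CD44+/+ replicate 3 the log2 fold change was 0.21 (adjusted p = 0.750).

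Each neutrophil marker overlapped between the genotypes. Of 7 markers 6 had a row, and their sum was 50.5 to 155 FPKM in CD44+/+ and 52.3 to 71.2 FPKM in CD44-/- samples. Ltf, the most abundant, had 28.7, 87.3 and 37.2 FPKM in CD44+/+ and 23.1, 33.8 and 15.2 FPKM in CD44-/- samples, and Ngp was listed at 0 in all. Of the 5 tested markers, 4 had negative log2 fold changes, of which Retnlg entered the test only through its CD44+/+ samples, and Cxcr2, a chemokine receptor gene chosen after its values were seen, a positive one close to that of Csf3r. Cxcr2 had 3.97, 2.62 and 3.71 FPKM in CD44+/+ and 4.56, 3.88 and 4.30 FPKM in CD44-/- samples (log2 fold change 0.32, SE 0.16, adjusted p = 0.708). Samples of the same replicate number are not stated to be matched. Between them, Ltf and Retnlg were lower and Cxcr2 higher in the CD44-/- sample for all 3 numbers. S100a8 and S100a9 were higher in the CD44-/- sample for replicate 1 and lower for replicates 2 and 3. Csf3r, which had no overlap, is higher under any matching. Of 5 epithelial markers, Scgb1a1 of airway secretory cells made up most of the sum, at 277 to 571 FPKM in the 6 samples, with a log2 fold change of -0.35 (adjusted p = 0.822). The other 4 had positive log2 fold changes, and the median of the list was 0.83. Among these, chosen after their values were seen, were the surfactant protein genes Sftpb and Sftpc. In the unsorted CD44-/- samples Sftpb was higher without overlap (log2 fold change 1.24, SE 0.34, adjusted p = 0.369). The log2 fold change of Sftpc was 1.44 (SE 0.57, adjusted p = 0.591). Sftpc overlapped, with 15.5, 6.83 and 9.72 FPKM in CD44+/+ and 22.8, 12.4 and 74.2 FPKM in CD44-/- samples. Both genes were highest in CD44-/- replicate 3. Summed monocyte markers, nearly all Fn1, were 311 to 433 FPKM in CD44+/+ and 226 to 299 FPKM in CD44-/- samples, without overlap. Ly6c2, Plac8 and Cx3cr1 of that list were under the minimum for testing, with means of 0.114, 0.381 and 0.464 FPKM. Which cells the Fn1 transcripts came from was not tested. Ccr2, the other tested gene of that list and chosen after its values were seen, overlapped and had a log2 fold change of 0.18. The part of these cells in the members' values was not tested, and in bulk RNA fewer cells of a type and less RNA per cell cannot be told apart. Chil3, the most abundant AM marker, had 10300 to 14200 FPKM over the 6 samples, and Cd44 had 527 to 540 FPKM in CD44+/+ and 51.4 to 54.7 FPKM in CD44-/- samples (log2 fold change -3.32, adjusted p = 4.19e-09).

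**Figure D2:**
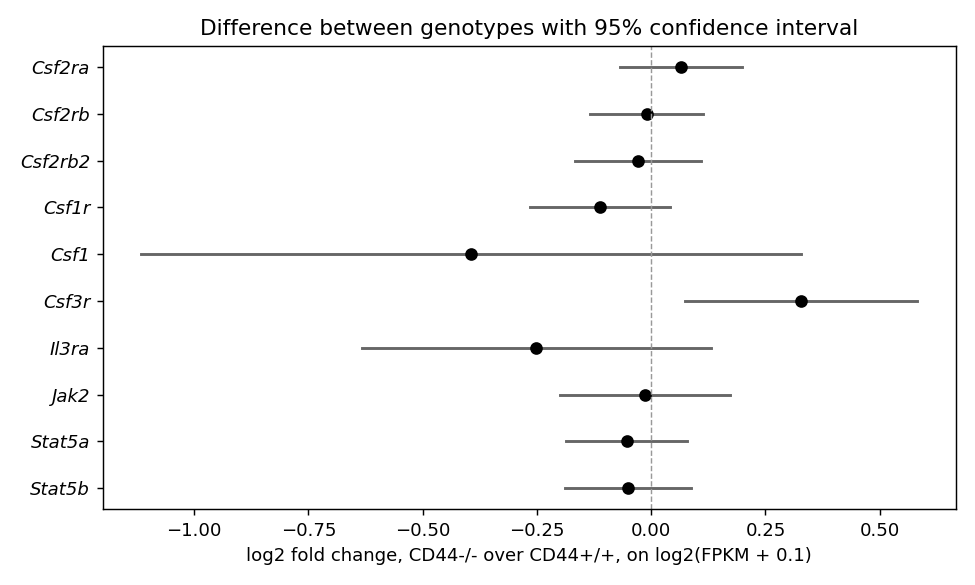
Log2 fold change of each member, CD44-/- over CD44+/+, on log2(FPKM + 0.1), with its 95% confidence interval from limma (n = 3 per genotype). The interval of Csf3r, 0.07 to 0.58, lies above 0 before adjustment, and the intervals of the other 9 members include 0.

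Jak2, the kinase that the beta chain carries, had 15.5, 14.1 and 13.99 FPKM in CD44+/+ and 15.9, 13.97 and 13.4 FPKM in CD44-/- AMs. In each genotype replicate 1 was the highest sample. Means were 14.5 ± 0.863 and 14.4 ± 1.29 FPKM, with a log2 fold change of -0.01 (SE 0.08, adjusted p = 0.989, interval 0.871 to 1.13 fold). Its sign turned when CD44+/+ replicate 1, CD44-/- replicate 2 or CD44-/- replicate 3 was left out, to 0.03, 0.01 and 0.04. Jak2 lies at chr19:29251828-29313080 on the plus strand.

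The STAT5 genes, whose products enter the nucleus after JAK2 acts on them, were at like levels and varied little. Stat5a had 24.5, 24.1 and 25.5 FPKM in CD44+/+ and 22.8, 23.7 and 24.9 FPKM in CD44-/- AMs. Stat5b had 23.6, 23.2 and 23.9 FPKM in CD44+/+ and 22.3, 24.3 and 21.7 FPKM in CD44-/- AMs. Both overlapped between genotypes. The log2 fold changes were -0.05 for each (SE 0.06 for each, adjusted p = 0.944 and 0.956). Intervals were 0.879 to 1.06 fold for Stat5a and 0.878 to 1.06 fold for Stat5b. Leaving out 1 sample gave log2 fold changes of -0.09 to -0.02 for Stat5a and -0.10 to -0.02 for Stat5b. The ratio of Stat5a to Stat5b ran from 0.978 to 1.15 (exact permutation p = 1.0), and that of Jak2 to the sum of both from 0.283 to 0.352 (p = 0.8, adjusted p = 0.96).

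**Figure D3:**
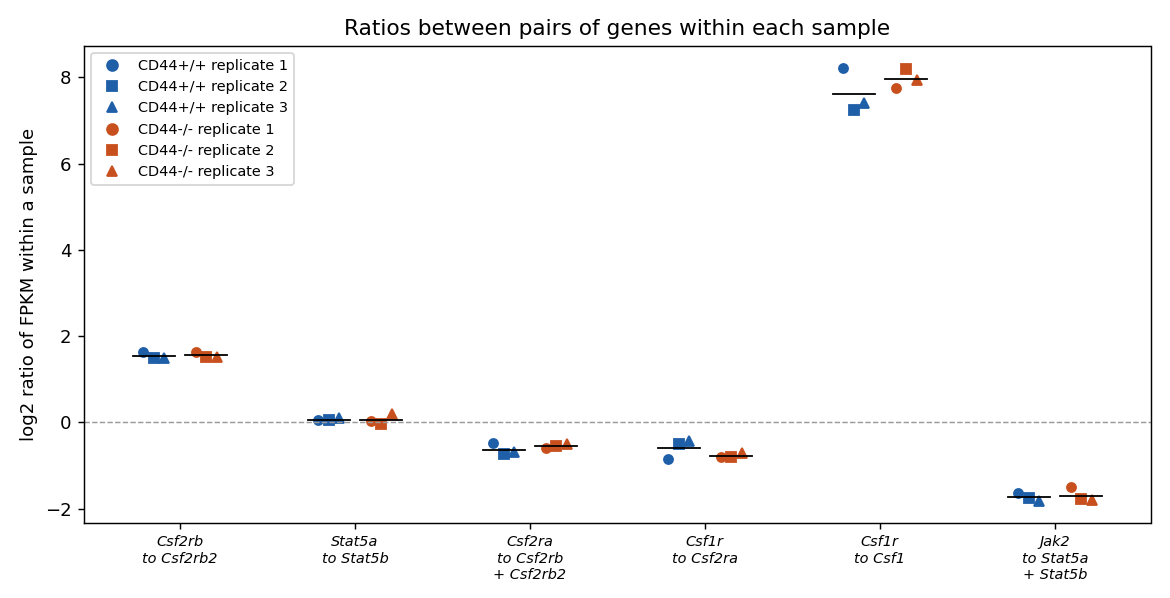
Log2 ratio of FPKM between members within each sample, for 6 ratios, with points for samples and bars for the mean of each genotype (n = 3). The genotypes overlap in all 6 ratios, and the ratios to Csf2ra and to Csf1 spread most within CD44+/+.

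As FPKM values are scaled for transcript length, the members can be ranked within a genotype. The order of the means was the same in both: Csf2rb, Csf2ra, Csf1r, Csf2rb2, Stat5a, Stat5b, Jak2, Csf3r, Il3ra and Csf1. Neighbours in this order that overlapped were Csf3r and Il3ra in CD44+/+ AMs, and Stat5a with Stat5b and Jak2 with Csf3r in CD44-/- AMs. Against the 10800 tested genes, whose median of mean levels was 12.2 FPKM, Csf2rb stood at the percentile 96.8, Csf2ra at 96.4, Csf1r at 94.3 and Csf2rb2 at 90.0. Csf1 stood at 1.5. The other members stood between 37.2 (Il3ra) and 69.8 (Stat5a).

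Replicates of a genotype differed little for the abundant members. The coefficient of variation within a genotype was at most 9.0% for Csf2ra, Csf2rb, Csf2rb2, Csf1r, Jak2, Stat5a and Stat5b. It was 13.2% and 9.87% for Csf3r, 25.1% and 11.7% for Il3ra and 38.0% and 15.1% for Csf1, in CD44+/+ and CD44-/- AMs. Over the 10 members 2 log2 fold changes were positive and 8 negative, with a median of -0.04, beside 0.01 over all genes tested.

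Other genes of the pathway were taken as 8 lists of 82 genes, of which 65 were tested and 0 were called by limma, with 9 at an unadjusted p under 0.05 against 7.69% of all genes tested. Of the 65, 6 were higher and 4 lower without overlap, or 15.4%, against 11.6% of all genes tested. The median log2 fold change over them was 0.003.

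Among 10 other JAK2-coupled or growth factor receptors, 4 were tested. Lepr, the leptin receptor, had 34.8, 26.6 and 28.4 FPKM in CD44+/+ and 41.5, 40.6 and 39.9 FPKM in CD44-/- AMs. Its CD44-/- samples were all higher, with a log2 fold change of 0.45 (SE 0.09, adjusted p = 0.203). Without CD44+/+ replicate 1, the highest of its group, it was 0.56 and passed the test (adjusted p = 0.0146), the one call in these lists under any setting tried. The interferon gamma receptor chains Ifngr1 and Ifngr2 had log2 fold changes of 0.14 (adjusted p = 0.761) and 0.01 (adjusted p = 0.989). That of Ifngr1 was 0.09 without CD44+/+ replicate 2 or without CD44-/- replicate 1.

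All 8 other JAK and STAT genes were tested, and 7 of their log2 fold changes were negative. Stat6, which relays IL-4 and was the most abundant of them, was lower without overlap, at 83.9 ± 1.07 and 80.4 ± 1.94 FPKM (log2 fold change -0.06, adjusted p = 0.858). Stat3 had a log2 fold change of -0.01 (adjusted p = 0.989) and Stat4, a low-level gene, of -0.24 (adjusted p = 0.966), which ran from -0.52 without CD44-/- replicate 1 to -0.04 without CD44-/- replicate 3 and was -0.10 with a pseudocount of 1. The 14 receptor-proximal signalling genes, kinases and adaptors such as the Src-family kinase Lyn and the MAP kinase Mapk3, all overlapped between genotypes. Lyn and Mapk3 had log2 fold changes of -0.065 and -0.073 (adjusted p = 0.932 and 0.856). That of Lyn ran from -0.12 without CD44-/- replicate 1 to -0.02 without CD44-/- replicate 2. For Mapk3, leaving out 1 sample gave -0.10 to -0.04.

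Of 13 negative regulators, 2 were higher without overlap in CD44-/- AMs, where 11.6% of all genes tested had no overlap in either direction. Cish had 17.6, 18.1 and 14.6 FPKM in CD44+/+ and 19.8, 23.2 and 20.7 FPKM in CD44-/- AMs. The log2 fold change came to 0.34 (SE 0.10, adjusted p = 0.383). Socs1, an inhibitor of JAK kinases, had 0.877, 0.580 and 0.229 FPKM in CD44+/+ and 1.34, 1.66 and 0.928 FPKM in CD44-/- AMs. This gave a log2 fold change of 1.19 (SE 0.40, adjusted p = 0.486), but 0.57 with a pseudocount of 1 and 0.76 without CD44+/+ replicate 3. The phosphatase genes Ptpn6 and Ptpn1, the most abundant of the list, had log2 fold changes of -0.05 (adjusted p = 0.942) and 0.02 (adjusted p = 0.989).

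Of 10 STAT5 target genes, 1 was lower without overlap, where 11.6% of all genes tested had no overlap in either direction. Ccnd2, a D-type cyclin, had 63.9, 71.2 and 79.5 FPKM in CD44+/+ and 60.7, 52.7 and 46.8 FPKM in CD44-/- AMs (log2 fold change -0.42, SE 0.11, adjusted p = 0.325). Mcl1, a survival gene and the most abundant of the list, had a log2 fold change of 0.28 (adjusted p = 0.695), which was 0.44 without CD44+/+ replicate 1 and 0.17 without CD44+/+ replicate 2. Positive and negative log2 fold changes numbered 4 and 6.

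Of 12 genes of the CSF-2 and PPARg programme of AMs, 2 were lower without overlap, beside 11.6% of all genes tested in either direction. Krt79, a keratin gene of this list, had 265, 269 and 314 FPKM in CD44+/+ and 224, 203 and 225 FPKM in CD44-/- AMs. The log2 fold change came to -0.38 (SE 0.08, adjusted p = 0.185). The other was Bhlhe41, a transcription factor gene chosen after its values were seen, at 47.6 ± 5.31 and 36.8 ± 2.76 FPKM (log2 fold change -0.37, adjusted p = 0.310). The 2 most abundant genes overlapped: Chil3 had a log2 fold change of -0.03 and Cd9 of 0.00 (adjusted p = 0.989 and 1).

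Of 10 genes linked to M-CSF-dependent macrophages, 4 reached the minimum for testing, all at low levels, and all 4 log2 fold changes were positive. C1qa, a chain of complement C1q, had 2.08, 1.09 and 1.74 FPKM in CD44+/+ and 3.26, 3.06 and 2.78 FPKM in CD44-/- AMs. The log2 fold change came to 0.89 (SE 0.21, adjusted p = 0.294). C1qc had a log2 fold change of 0.83 (adjusted p = 0.471) and no overlap, with 1.79, 0.813 and 1.36 against 1.87, 2.60 and 2.56 FPKM. For C1qc the value was 0.54 with a pseudocount of 1 or without CD44+/+ replicate 2. None passed the test.

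**Figure D4:**
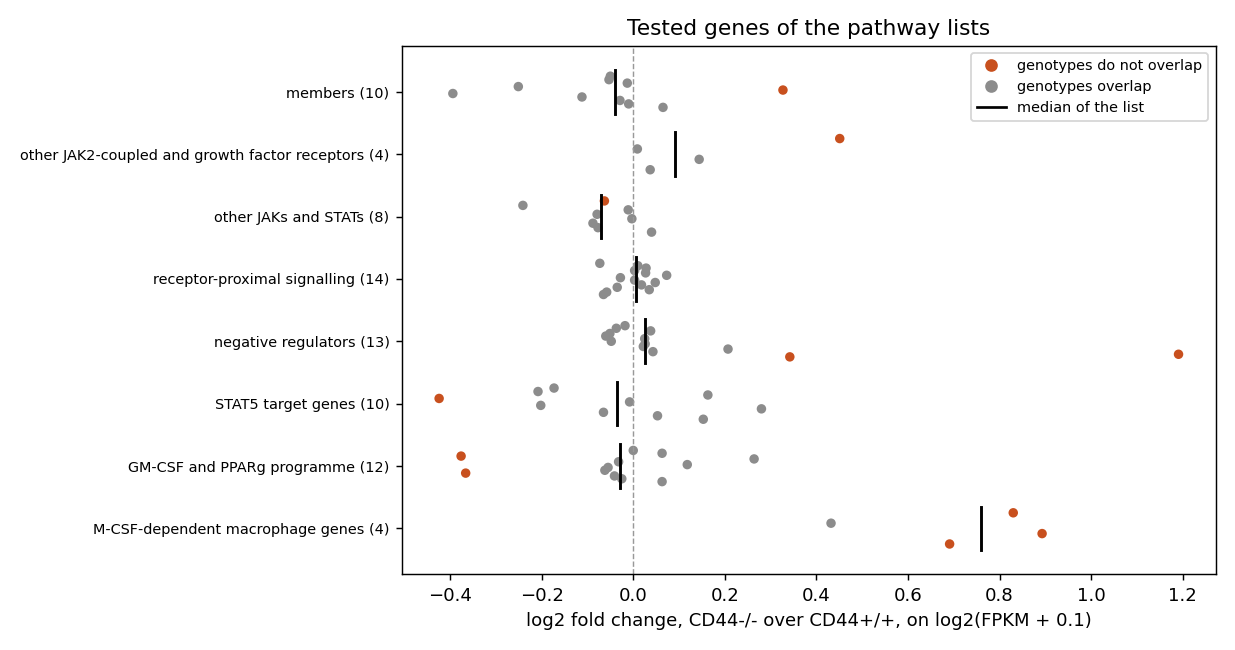
Log2 fold change, CD44-/- over CD44+/+ on log2(FPKM + 0.1), of each tested gene in the members and in the 7 pathway lists with a tested gene (number tested in parentheses). Points are genes, orange where the genotypes did not overlap, and bars are medians; the list of M-CSF-dependent genes has 4 genes and a median of 0.76, and the other medians lie between -0.07 and 0.09.

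Genes whose log2(FPKM + 0.1) varied most like that of a receptor over the 6 samples were sought among the 7888 genes whose mean reached 5 FPKM. For Csf2ra these included Brf1 (Pearson r = 0.992) and Spata5l1 (0.989). For Csf2rb they were Ppfibp2 (r = 0.976), Mapkapk3 (0.968) and Zfr (0.967). For Csf1r they were Prdx1 (r = 0.988), Ipo5 (0.981) and Ccdc86 (0.979). The values describe likeness over 6 points that share libraries, and carry no test.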

How the data were processed

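RNA of BAL cells was extracted with a column kit, poly(A) libraries were prepared with a stranded kit, and paired reads of 42 bp were aligned to mm10 with STAR. The authors deposited Cufflinks output as FPKM, for 24341 genes and 6 samples; FPKM is scaled for depth and transcript length. How reads shared by near-identical genes were assigned is not given in the sources used here. The deposited file also holds the authors' own group means, fold changes and p-values from Cuffdiff, which were not used. Its name and position columns are in another row order, so values were taken by gene identifier and positions from GENCODE vM21. Rapgef6 lacked a value and was left out.

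Genotype and replicate number were read from the labels. The 10800 genes whose mean reached 0.5 FPKM were compared on log2(FPKM + 0.1) with limma 3.58.1 in R 4.3.3 (lmFit, eBayes with a trend, two-sided). P-values were adjusted by Benjamini-Hochberg across all 10800. Fold changes are on that scale, which understates those of low genes. Each p-value covers the spread between pools of mice. Single members and within-sample ratios were also compared by exact permutation in Python 3.11.15 with scipy 1.17.1, and sequences were aligned with Biopython 1.88. The limma step was tested on simulated data first.

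Members and lists were chosen with earlier results of these data known. Named were all members, Cd44, from each pathway list the 2 most abundant genes, the one with the largest log2 fold change and any called, the most abundant gene of each marker list mentioned, and the 3 genes most like each of 3 receptors. Results for some genes under this rule are left out here. Summed markers, in CD44+/+ and CD44-/- samples, were 13300 to 15800 and 12600 to 16600 FPKM for AMs. The monocyte list, nearly all Fn1, had 311 to 433 and 226 to 299 FPKM. The dendritic cell list had 1.47 to 2.06 and 1.49 to 2.77 FPKM, and the lymphocyte list 0.612 to 1.73 and 0.699 to 0.765 FPKM. The epithelial list had 406 to 636 and 389 to 556 FPKM, and the erythroid list 2.12 to 17.3 and 2.89 to 56.5 FPKM. Markers of eosinophils, mast cells and basophils summed to at most 0.0969 FPKM.

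Same-numbered samples deviated together (correlations of 0.212, 0.132 and 0.211 over 10800 genes), so a fit with the replicate number as a block was run. Other pseudocounts, filters, scalings and variance settings, and leaving out each sample, were also tried. Absolute depth is unknown and no counting error is given; relative depth, from steps between low values, was 0.811 to 1.05 of that of CD44+/+ replicate 1.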

Additional observations from a re-analysis of the deposited data

How the results depend on the processing

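No setting called a member, and the smallest adjusted p of any was 0.203 for Csf1r. With the replicate block, the paired fit, 9 of all tested genes were called in place of 12, with 0 members and 0 genes of the pathway lists, so no call there changed. Without a filter on low values 7 of all genes were called. Leaving out 1 sample gave 6 to 36 calls, from 6 without CD44-/- replicate 2 to 36 without CD44+/+ replicate 1 (22 without CD44-/- replicate 1, 7 without CD44+/+ replicate 2), 0 to 0 members, and 0 to 1 genes of the pathway lists, the 1 being Lepr. Csf1 could not be tested at a mean of at least 1 FPKM.

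Signs turned for values whose first estimate was within 0.04 of 0 on the log2 scale. With quantile normalization they were 0.00054 for Csf2rb (0.001 in the permutation test) and 0.01 for Cd9, and with median-ratio scaling -0.01 for Ifngr2. Leaving out 1 sample gave -0.05 to 0.04 for Csf2rb, -0.08 to 0.0038 for Csf2rb2, -0.08 to 0.04 for Jak2, -0.01 to 0.04 for Ifngr2, -0.03 to 0.01 for Stat3, -0.06 to 0.09 for Ptpn1, -0.17 to 0.06 for Chil3 and -0.03 to 0.03 for Cd9. For the differences in log2 ratio it gave -0.019 to 0.064 for Csf2rb to Csf2rb2, -0.069 to 0.045 for Stat5a to Stat5b and -0.056 to 0.089 for Jak2 to both Stat5 genes. The cause of these turns was not tested.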
